A study of Mus musculus with 15 samples.

Results

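Lef1, Tcf7l1, Tcf7l2 and Sp5 are 4 of the 22180 genes that could be named on these arrays. Lef1, Tcf7l1 and Tcf7l2 are LEF/TCF factors, the DNA-binding partners of beta-catenin, and Sp5 is a zinc finger factor of the SP family. Each was taken as the array row whose annotation names that gene alone, and each had 1 such row. The family's remaining factor, Tcf7, is not named in the annotation used here and is not analysed.

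RNA was measured in 15 libraries from cerebella of newborn C57BL/6 mice, with 1 array per library and 3 labelled groups of 5. In the group labelled GSK-3 DKO, both forms of glycogen synthase kinase 3, alpha and beta, are given as deleted in cerebellar granule neuron progenitors. The Math1-Cre control carries Math1-Cre with the genotype Gska+-, GskBff, and is described as deleted for Gsk-3 beta only. The no-Cre control carries Gska+-, GskBff without Cre and is described as having Gsk-3 intact, although the description of no-Cre 5 leaves out Gsk3b. Both controls thus share 1 altered Gsk3a allele. Cre from the Math1 (Atoh1) promoter acts in the granule neuron lineage, so other cerebellar cells in a library keep Gsk-3 beta. The no-Cre control carries its altered Gsk3a allele without Cre, so that allele is not limited to this lineage. The age is given as postnatal day 1 in one label and day 2 in another. Progenitors were enriched on a density gradient, per the design text. Nothing in the labels ties libraries to litters, and the p-values therefore cover only how far these samples spread, which may be technical in part.

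In WNT signalling, Gsk-3 phosphorylates beta-catenin in a destruction complex and marks it for degradation. When Gsk-3 is blocked or lost, beta-catenin accumulates, enters the nucleus and binds LEF/TCF factors at target genes. Without beta-catenin the same factors recruit co-repressors of the TLE family. Tcf7l1 acts mostly as a repressor, Lef1 mostly as an activator, and Tcf7l2 as either. Lef1 and Sp5 are themselves direct targets of the pathway in many tissues, and Sp5 in turn represses a share of its target genes. In the brain, Lef1 is also made by endothelial cells, and Tcf7l2 is abundant in the thalamus and midbrain.

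The values are log2 expression, so a difference of 1 is a 2-fold difference, and the number of arrays limits their precision. The medians of 1394 olfactory and vomeronasal receptor genes, taken as background, lay between 3.50 and 4.11 in the 15 libraries. All 4 genes stayed above 6.2 in every library. The 10 progenitor markers (Atoh1, Barhl1, Pax6 and others) averaged 8.76 to 9.43 per library and none lay near background. The 6 T cell markers, looked at because T cells express Lef1, averaged 3.09 to 3.34 and all 6 lay at background. The Gsk3a row, which the annotation gives to a second transcript as well, ran against the label in 4 libraries. It read 7.89 to 8.27 in DKO 2, 4 and 5 and in Math1-Cre 1 and 2, and 9.37 to 9.59 in the other 10 libraries, DKO 1 and DKO 3 among them. In this row the mean of the DKO label lay -0.86 from no-Cre (two-sided exact permutation p = 0.0238) and -0.31 from Math1-Cre (exact permutation p = 0.468). Gsk3b differed by 0.01 or less between any 2 labelled groups. Below, the libraries whose Gsk3a row is under 9.0 are called Gsk3a-low and the others Gsk3a-high.

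Lef1 was high in each Gsk3a-low library and low in each Gsk3a-high one, whatever the label. Among the libraries labelled DKO it read 9.00, 8.86 and 8.65 in DKO 2, 4 and 5, against 6.76 in DKO 1 and 6.54 in DKO 3. In the Math1-Cre control it read 8.73 and 8.62 in libraries 1 and 2, against 6.73, 6.84 and 7.31 in libraries 3, 4 and 5. In the no-Cre control it read 7.12, 7.15, 6.80, 6.67 and 6.85. The 5 Gsk3a-low libraries therefore spanned 8.62 to 9.00 (median 8.73) and the 10 Gsk3a-high libraries 6.54 to 7.31 (median 6.82), with a gap of 1.31 between the sets. The medians differed by 1.91, which is 3.76-fold. Math1-Cre 1 and 2 reached the level of the DKO libraries, and DKO 1 and 3 lay at the bottom of the no-Cre range or under it.

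Sp5 showed the same 2 levels. It read 8.62, 8.58 and 8.19 in DKO 2, 4 and 5 but 6.71 and 6.29 in DKO 1 and 3. In the Math1-Cre control it read 8.42 and 8.18 in libraries 1 and 2 and 6.42, 6.82 and 6.80 in libraries 3, 4 and 5. The no-Cre libraries read 6.95, 7.13, 6.64, 7.11 and 6.78. The Gsk3a-low libraries spanned 8.18 to 8.62 (median 8.42) and the Gsk3a-high libraries 6.29 to 7.13 (median 6.79), with a gap of 1.05 and a 3.10-fold difference of medians. DKO 3 held the lowest value of both Lef1 and Sp5 in the series.

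Tcf7l1, the repressor of the family, varied little. It read 7.36, 7.38, 7.42, 7.18 and 7.05 in DKO 1 to 5, 7.16, 7.29, 7.10, 7.10 and 7.55 in Math1-Cre 1 to 5, and 7.49, 7.42, 7.21, 6.90 and 7.47 in no-Cre 1 to 5. Its whole range over 15 libraries was 0.66, or 1.57-fold. The Gsk3a-low libraries (7.05 to 7.38) lay inside the range of the Gsk3a-high ones (6.90 to 7.55).

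Tcf7l2 varied as much as Lef1 but followed neither the labels nor the Gsk3a row. It read 9.38 and 8.92 in DKO 1 and 3, 8.09 in DKO 2, and 6.77 and 6.66 in DKO 4 and 5. In Math1-Cre 1 to 5 it read 7.64, 8.07, 7.52, 6.72 and 8.63, and in no-Cre 1 to 5 it read 6.97, 7.77, 6.79, 8.03 and 7.19. Its range of 2.73 (6.63-fold) was the widest of the 4 genes. The Gsk3a-low libraries (6.66 to 8.09, median 7.64) and the Gsk3a-high ones (6.72 to 9.38, median 7.64) overlapped almost fully. DKO 1, DKO 3 and Math1-Cre 5 held the 3 highest values.

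**Figure D1:**
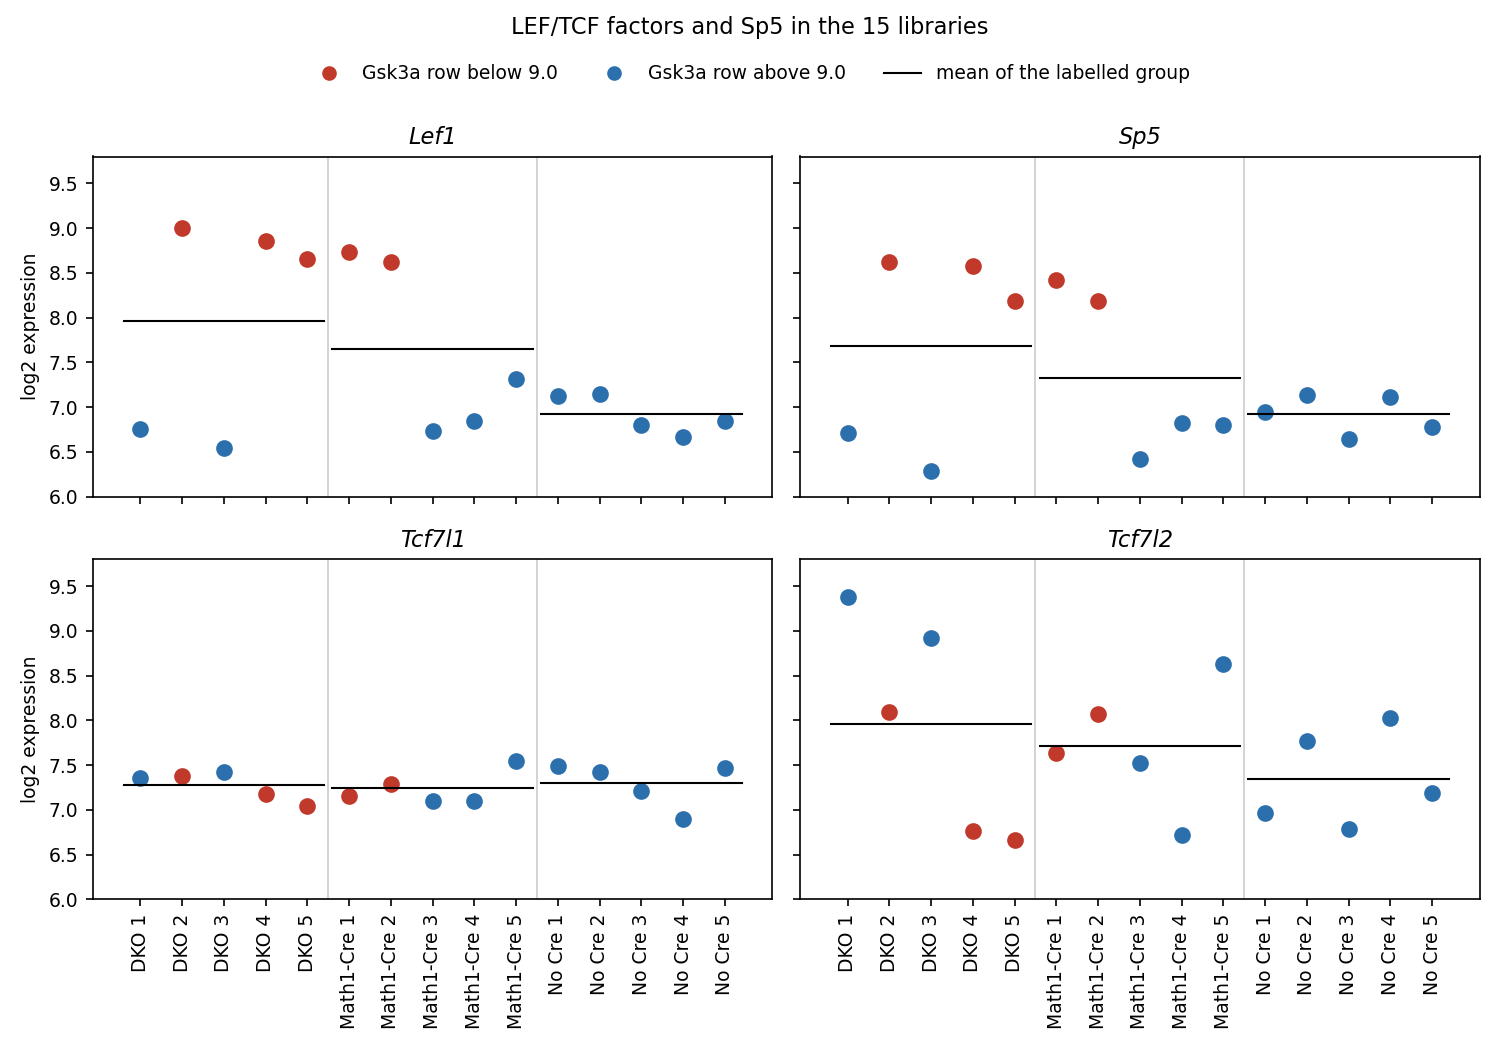
Log2 expression of each gene (y axis) in the 15 libraries (x axis, ordered by label), with Gsk3a-low libraries in red, Gsk3a-high libraries in blue and the mean of each labelled group as a black line. Lef1 and Sp5 sit at 8.18 or above in the 5 red libraries and at 7.31 or below in the 10 blue ones, Tcf7l1 stays within 6.90 to 7.55, and Tcf7l2 spreads from 6.66 to 9.38 in no order of colour or label.

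Of the 4 genes, 2 separated the Gsk3a-low from the Gsk3a-high libraries without overlap, both upward, where 0.663% of all genes did so upward, 0.843% downward and 1.51% in all. By the width of the gap, 8 of 22180 genes lay further apart upward than Lef1 and 14 further than Sp5. After quantile normalization the gap was 1.35 for Lef1 and 0.85 for Sp5, and after centring each array on its median it was again 1.35 and 0.85. No test was made between these full sets, because they were drawn from a measured row after Lef1 and other WNT genes had been seen to split over the same libraries. The fit to 11 libraries given below compares parts of them, and the same limit holds there. The mean of the 10 progenitor markers was 8.76 to 8.87 in the Gsk3a-low libraries and 9.05 to 9.43 in the Gsk3a-high ones. Of the 10, 2 separated the sets, Mycn and Nhlh1, both lower in the Gsk3a-low libraries and named after their values were seen. The other 8 overlapped. In the fit to 11 libraries, 3 of the 10 were called lower in DKO than in no-Cre (limma adjusted p under 0.05). They were Nhlh1 (-1.20), Atoh1 (-0.80) and Mycn (-0.64), where 0.640% of all genes were called lower. Against Math1-Cre 2 of the 10 were called lower, where 0.252% of all genes were. The part of this marker difference in the Lef1 and Sp5 levels was not tested. In bulk RNA of this kind, fewer cells of a type and less RNA per cell cannot be told apart.

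The DNA just upstream of the transcription start is shown for Sp5 and Lef1 because these 2 genes moved together. LEF/TCF factors bind a short motif, taken here as AACAAAG (the first form), ATCAAAG (the second), TACAAAG (the third) or TTCAAAG (the fourth). All forms were searched on both strands in the 250 bases before each start, with overlapping matches counted. Capitals mark the matches. The sequences are RefSeq's, build GRCm38.p6, read 5′ to 3′ on the strand of the gene, which is the plus strand for both. All 4 genes had entries in the promoter table. Sp5 has 1 listed start and its window is chr2:70474673-70474922. Lef1 has 4 listed starts, and the window of the most upstream one is chr3:131110047-131110296.
Sp5: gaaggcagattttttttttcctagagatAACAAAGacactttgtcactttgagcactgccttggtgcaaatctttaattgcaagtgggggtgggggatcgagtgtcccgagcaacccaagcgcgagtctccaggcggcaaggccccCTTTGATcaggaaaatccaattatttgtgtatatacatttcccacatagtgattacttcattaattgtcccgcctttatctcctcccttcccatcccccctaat
Lef1: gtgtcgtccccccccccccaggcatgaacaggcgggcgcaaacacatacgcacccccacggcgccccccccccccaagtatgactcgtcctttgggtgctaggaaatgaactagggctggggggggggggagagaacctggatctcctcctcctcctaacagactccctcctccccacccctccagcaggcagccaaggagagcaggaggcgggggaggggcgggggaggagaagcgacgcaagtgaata

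The Sp5 window holds 2 matches, AACAAAG on the plus strand and ATCAAAG on the minus strand, which reads CTTTGAT as printed. They begin at positions -222 and -104 counted from the start. Among 32851 promoter windows of this length, 14.84% held at least 1 match and 1.43% held 2 or more. The Lef1 window printed holds none, nor do those of 2 other Lef1 starts, and the fourth Lef1 start has 1 match, TACAAAG. The Tcf7l1 window has 0 matches, and of the 2 Tcf7l2 windows 1 has a single match. The GC box GGGCGG, a motif bound by SP factors, was searched in the same way. It occurs 6 times at the upstream Tcf7l2 start, 2 times at Tcf7l1 and not in the Sp5 window. It occurs once at each of 3 Lef1 starts, of which 2 have overlapping windows that hold the same site. Of all windows 32.74% held it, 16.73% held it 2 or more times and 8.469% held it 3 or more times. Matches are letters in a window and say nothing of binding.

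Set against no-Cre, the DKO label shows Cre and the loss of both kinases at once. As labelled, Lef1 averaged 7.96 ± 1.21 (SD, n = 5) in DKO and 6.92 ± 0.21 (n = 5) in no-Cre, a difference of 1.05 ± 0.50 (SE). It did not pass the threshold of 0.05 (limma adjusted p = 0.292, Benjamini-Hochberg over all genes). Sp5 averaged 7.68 ± 1.10 and 6.92 ± 0.21, a difference of 0.76 ± 0.46 (limma adjusted p = 0.404). Tcf7l2 differed by 0.61 ± 0.49 (adjusted p = 0.526) and Tcf7l1 by -0.02 ± 0.12 (adjusted p = 0.952, 95% interval -0.28 to 0.24). The SD of Lef1, Sp5 and Tcf7l2 within the DKO label was over 1, which is larger than each of these differences. None of the 4 genes passed in limma, none had an unadjusted p under 0.05, and 0.0721% of all genes were called, 0.0180% higher and 0.0541% lower.

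Set against Math1-Cre, the DKO label addresses what losing Gsk-3 alpha adds once Gsk-3 beta is gone. Each label held libraries at both levels of Lef1 and Sp5, and the 2 labels overlapped. Lef1 differed by 0.32 ± 0.50 (limma adjusted p = 0.724), from a Math1-Cre mean of 7.65 ± 0.97 (SD, n = 5). Sp5 differed by 0.35 ± 0.46 (adjusted p = 0.671), from 7.33 ± 0.91. Tcf7l2 differed by 0.25 ± 0.49 and Tcf7l1 by 0.04 ± 0.12 (limma adjusted p = 0.781 and 0.871). Of the 4 genes 0 passed and 0 had an unadjusted p under 0.05, against 0.550% of all genes called, 0.131% higher and 0.419% lower (29 and 93 genes). After quantile normalization the genes called were 11 higher and 9 lower, and after centring each array on its median 20 higher and 3 lower.

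Math1-Cre minus no-Cre asks what Cre with loss of Gsk-3 beta alone does. Lef1 differed by 0.73 ± 0.50, Sp5 by 0.41 ± 0.46, Tcf7l2 by 0.37 ± 0.49 and Tcf7l1 by -0.06 ± 0.12 (limma adjusted p = 1.00 for each). No gene of the 22180 passed here (0%), with 716 at an unadjusted p under 0.05, none of them among these 4.

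The same comparisons were repeated on 11 libraries, without DKO 1, DKO 3, Math1-Cre 1 and Math1-Cre 2, whose Gsk3a row goes against their label. These results are not blind, since Lef1 was among the genes that split over the same libraries. Every DKO library left is Gsk3a-low and every control left is Gsk3a-high. The p-values below therefore describe differences beside the spread of the libraries kept and are not independent support. The library sets left do not overlap for Lef1 or Sp5, which follows from that choice. Lef1 averaged 8.84 ± 0.18 (SD, n = 3) in DKO, 6.96 ± 0.31 (n = 3) in Math1-Cre and 6.92 ± 0.21 (n = 5) in no-Cre. Sp5 averaged 8.46 ± 0.24, 6.68 ± 0.23 and 6.92 ± 0.21 in the same order.

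Lef1 was higher in DKO than in no-Cre by 1.92 ± 0.15 (3.78-fold, 95% interval 1.59 to 2.25, limma adjusted p = 6.34e-05). Against Math1-Cre it was higher by 1.87 ± 0.17 (adjusted p = 0.000306). Sp5 was higher than in no-Cre by 1.54 ± 0.15 (2.91-fold, 95% interval 1.22 to 1.86, limma adjusted p = 0.000352) and higher than in Math1-Cre by 1.78 ± 0.17 (adjusted p = 0.000306). Of the 4 genes 2 were thus called higher in each of these comparisons, where 0.437% and 0.289% of all genes were. Called lower were 0.640% and 0.252%, which makes 1.08% and 0.541% in either direction. The 97 higher and 142 lower genes of DKO minus no-Cre became 146 and 83 after centring and 136 and 119 after quantile normalization, and the 64 and 56 of DKO minus Math1-Cre became 111 and 28, and 103 and 42. The 2 comparisons share the DKO libraries. The other settings that follow draw on the same 11 libraries, so they are not independent support either. Over 16 other settings of the 11 libraries, the limma adjusted p ranged from 2.47e-05 to 0.00257 for Lef1 and from 0.000311 to 0.00453 for Sp5 against no-Cre, and from 6.9e-05 to 0.0103 and from 0.000256 to 0.0051 against Math1-Cre.

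Tcf7l1 and Tcf7l2 did not pass in the 11 libraries. Tcf7l1 differed from no-Cre by -0.09 ± 0.15 (95% interval -0.43 to 0.24, limma adjusted p = 0.832) and from Math1-Cre by -0.05 ± 0.17 (adjusted p = 0.904), with signs that turned after either rescaling of the arrays. The interval leaves out a change of Tcf7l1 of the size seen for Lef1 or Sp5 in either direction. Tcf7l2 differed from no-Cre by -0.18 ± 0.44 (adjusted p = 0.896), with a 95% interval of -1.14 to 0.78 that is too wide to exclude a 2-fold fall. Its sign is the opposite of that in the 15 libraries, and the libraries left out include DKO 1 and DKO 3, where it is highest. Between the Math1-Cre and no-Cre libraries left, Lef1 differed by 0.04 ± 0.15 and Sp5 by -0.24 ± 0.15 (limma adjusted p = 1.00 for both).

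**Figure D2:**
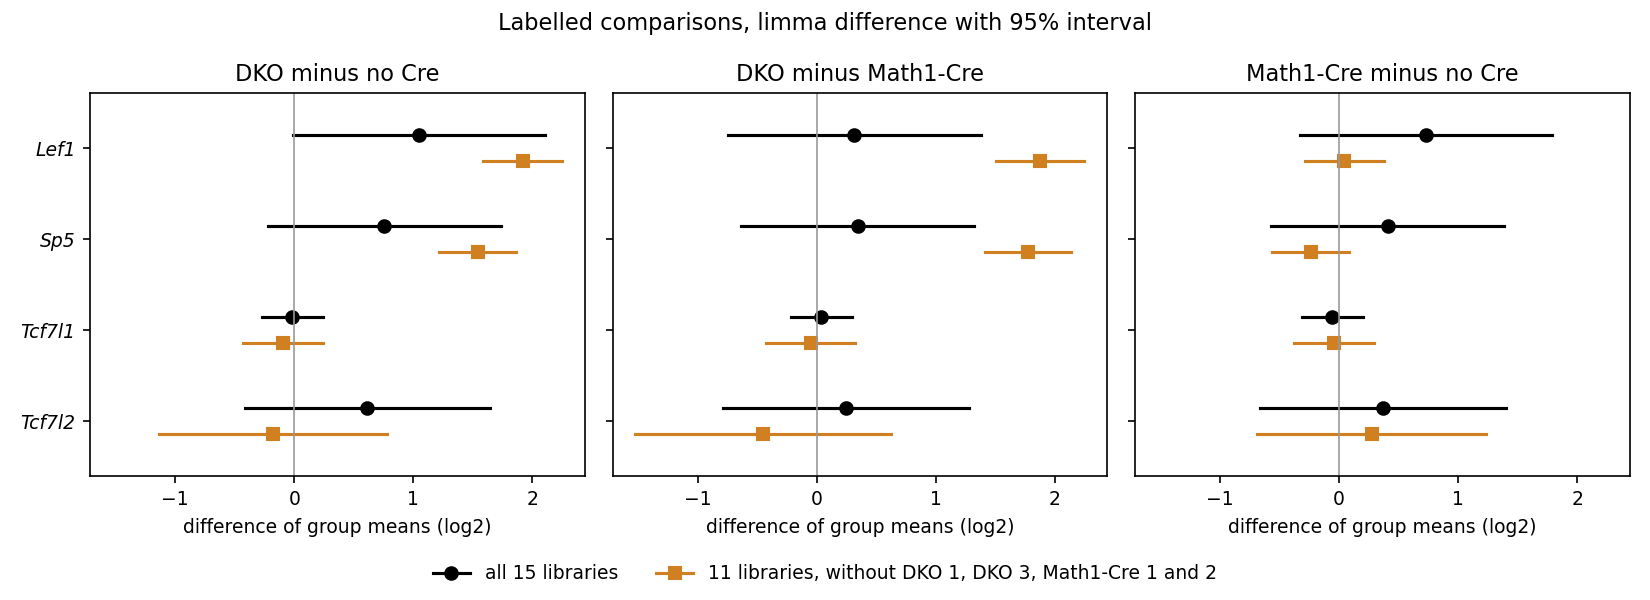
Difference of group means on the log2 scale (x axis) for each gene (y axis) in the 3 labelled comparisons, with limma's 95% interval as a line, for all 15 libraries (black circles) and for the 11 libraries (orange squares). With 11 libraries the Lef1 and Sp5 intervals lie above 1 in both comparisons of DKO, while every interval of Tcf7l1 and Tcf7l2 spans 0.

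Other genes of the pathway were set beside these 4. Of 19 further direct targets of WNT signalling through TCF that were measured, 0 passed in any labelled comparison of the 15 libraries, with 7, 1 and 4 at an unadjusted p under 0.05 for DKO minus no-Cre, DKO minus Math1-Cre and Math1-Cre minus no-Cre. Of all genes 17.4%, 23.0% and 3.23% had such a p. In the 11 libraries, 7 of 19 were called higher in DKO than in no-Cre and 0 lower, and 7 were called higher than in Math1-Cre. Of all genes 0.437% and 0.289% were called higher in these comparisons. The 11 libraries were kept after WNT genes had been seen to split over them, so these counts are not independent support. The median difference from no-Cre was 0.34 for the list and -0.02 for all genes. Those with the largest differences from no-Cre were Wif1, which binds WNT ligands (3.76 ± 0.17), Notum, which removes their lipid (2.57 ± 0.12), Lgr6, an R-spondin receptor (2.54 ± 0.25), and Axin2, a scaffold of the destruction complex (1.28 ± 0.10). Notum lay at background in the Gsk3a-high libraries (3.09 to 3.61), so the size of its difference is uncertain. By the Gsk3a row, 7 of the 19 targets had all Gsk3a-low libraries above all Gsk3a-high ones, where 0.663% of all genes did. Not all targets rose: Ccnd1, named after its values were seen, was the 1 target whose Gsk3a-low libraries (8.38 to 8.78) all lay below the Gsk3a-high ones (8.93 to 9.42). Of all genes 0.843% lay below in this way.

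No partner of the LEF/TCF factors passed the test. Among 17 genes for beta-catenin and its co-activators, 12 for TCF co-repressors, 13 for inhibitors and kinases that act on TCF or beta-catenin, and 7 other SP factors, 0 passed in limma in any comparison, with either 15 or 11 libraries. At an unadjusted p under 0.05 there were 4 co-activators, 1 co-repressor, 5 inhibitors or kinases and 2 SP factors in DKO minus no-Cre over 15 libraries, and 1, 1, 3 and 0 over 11, where 17.4% and 12.7% of all genes had such a p. In DKO minus Math1-Cre over 15 libraries, Axin1, the destruction complex scaffold, had a difference of -0.36 ± 0.11 (limma adjusted p = 0.0983), as large in size as those of Lef1 and Sp5 in that comparison. Ctnnb1, which encodes beta-catenin itself, spanned 10.80 to 10.90 in the Gsk3a-low and 10.75 to 11.14 in the Gsk3a-high libraries. The co-activator gene Pygo2 had the largest difference of its list in DKO minus no-Cre over 11 libraries, -0.28 ± 0.12 (adjusted p = 0.342). The co-repressor gene Tle4 had -0.23 ± 0.10 (adjusted p = 0.345), the kinase subunit gene Csnk2a1 -0.33 ± 0.09 (adjusted p = 0.126) and Sp1 -0.22 ± 0.15 (adjusted p = 0.545). Apc, a scaffold of the destruction complex, was the 1 gene of these lists whose levels did not overlap, and it was named after its values were seen. It read 10.24 to 10.42 in the Gsk3a-low and 10.47 to 10.58 in the Gsk3a-high libraries. Of all genes 1.51% did not overlap in either direction, and 1 gene in lists of 17, 12, 13 and 7 is near that share.

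**Figure D3:**
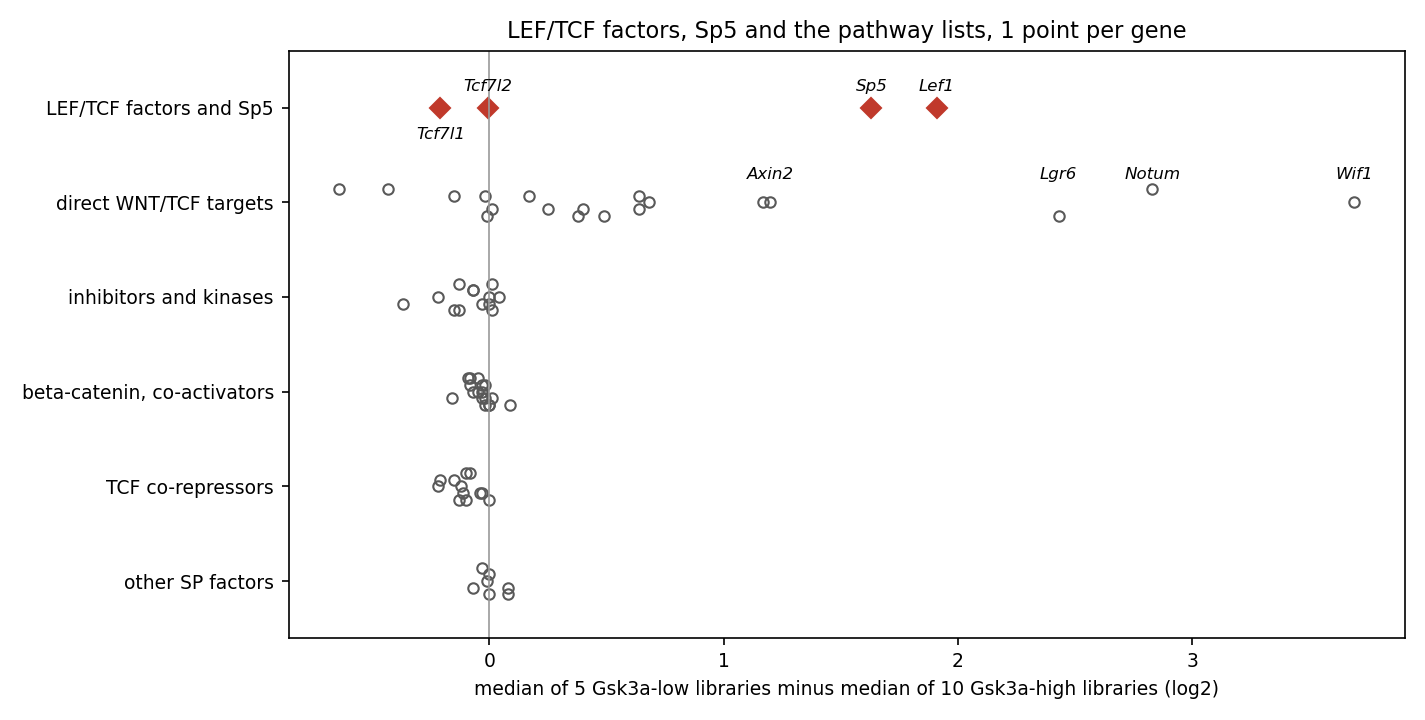
Median of the 5 Gsk3a-low libraries minus median of the 10 Gsk3a-high libraries on the log2 scale (x axis), with 1 point per gene, for the 4 genes (red diamonds) and for 5 lists of pathway genes (open circles, one list per line of the y axis, spread vertically only to be seen). Lef1 at 1.91 and Sp5 at 1.63 lie among the direct targets, whose range is -0.64 to 3.69, whereas the other 4 lists stay between -0.37 and 0.09.

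Lef1 and Sp5 were close to each other over the 15 libraries, with Pearson's r of 0.97 across libraries, most of which comes from the 2 levels; within the 10 Gsk3a-high libraries r was 0.53. The genes most like Lef1 over the 15 libraries were Myo1e, a class I myosin (r = 0.99), Axin2 (0.98), Mybpc1, a myosin-binding protein (0.98), Dock5 (0.98) and Fst, the activin antagonist follistatin (0.98). Those most like Sp5 were Mybpc1, Myo1e, Fst, Lef1 and Axin2 (each 0.97). Myo1e read 9.10 to 9.39 in the Gsk3a-low libraries and 6.76 to 7.48 in the others. The genes that ran most against Lef1 were Mfap4, Cadps2 (a factor for dense-core vesicle release, r = -0.93), St18, Samd14 and Rnf148, with r from -0.93 to -0.91. Cadps2 read 7.62 to 7.85 where Lef1 was high and 8.66 to 9.24 where it was low. For Sp5 they were St18, Plppr1, Lynx1, Map3k1 and Samd14, with r from -0.93 to -0.91.

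Below its high level, Lef1 followed the vascular markers of a library. In the 10 Gsk3a-high libraries the mean of 10 endothelial markers (Cldn5, Pecam1, Cdh5, Kdr and others) ran from 7.18 to 7.88. Lef1 was lowest in DKO 3 (6.54), where the markers were lowest, and highest in Math1-Cre 5 (7.31), where they were highest. Pearson's r was 0.94 (two-sided permutation p = 4e-05, adjusted p = 0.00144 over 36 relations of these 4 genes to 9 marker lists) and Spearman's rho was 0.98 (permutation p = 4e-05), with 10 libraries. Without the 2 libraries farthest from the median of the markers r was 0.88, after quantile normalization 0.91, and without the 2 arrays of narrow spread, DKO 3 and no-Cre 4, 0.94. Single markers ranged from r = 0.94 (Kdr and Cdh5, the VEGF receptor and the endothelial cadherin) to 0.44 (Egfl7). A correlation is given here only over 6 or more libraries, and no label has that many in this set. Among the 5 no-Cre libraries, Lef1 was lowest (6.67) in no-Cre 4, where the markers were lowest (7.28), and higher in no-Cre 1 and 2 (7.12 and 7.15), where they were highest (7.78 and 7.64).

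Other tissue at the surface and ventricles of the cerebellum moved with Lef1 as well. In the same 10 libraries, r with Lef1 was 0.89 for 6 meningeal fibroblast markers (permutation p = 0.00046, adjusted p = 0.00828; Spearman's rho = 0.82, permutation p = 0.00576; r = 0.71 without the 2 farthest libraries). It was 0.85 for 5 choroid plexus and ependymal markers (permutation p = 0.00203, adjusted p = 0.0244; rho = 0.81, permutation p = 0.00718; r = 0.72 without the 2 farthest). These marker lists are close to the endothelial one and to each other, with r of 0.78 to 0.84, so the 3 cannot be told apart here. Which cells the Lef1 RNA came from was not tested. The Gsk3a-low libraries had endothelial means of 7.24 to 7.51, within the 7.18 to 7.88 of the Gsk3a-high libraries. Lef1 did not rise with the markers there: it was highest in DKO 2 and DKO 4 (9.00 and 8.86), where the markers were lowest (7.26 and 7.24). It read 8.65 in DKO 5, where they were highest (7.51). For Sp5 the nearest relation was to the choroid plexus and ependymal markers (r = 0.79, permutation p = 0.00659, adjusted p = 0.0593; rho = 0.81, permutation p = 0.00708; 0.78 without the 2 farthest), which did not pass, and r with the endothelial markers was 0.39 (permutation p = 0.267, adjusted p = 0.565; rho = 0.49, permutation p = 0.156; 0.08 without the 2 farthest).

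**Figure D4:**
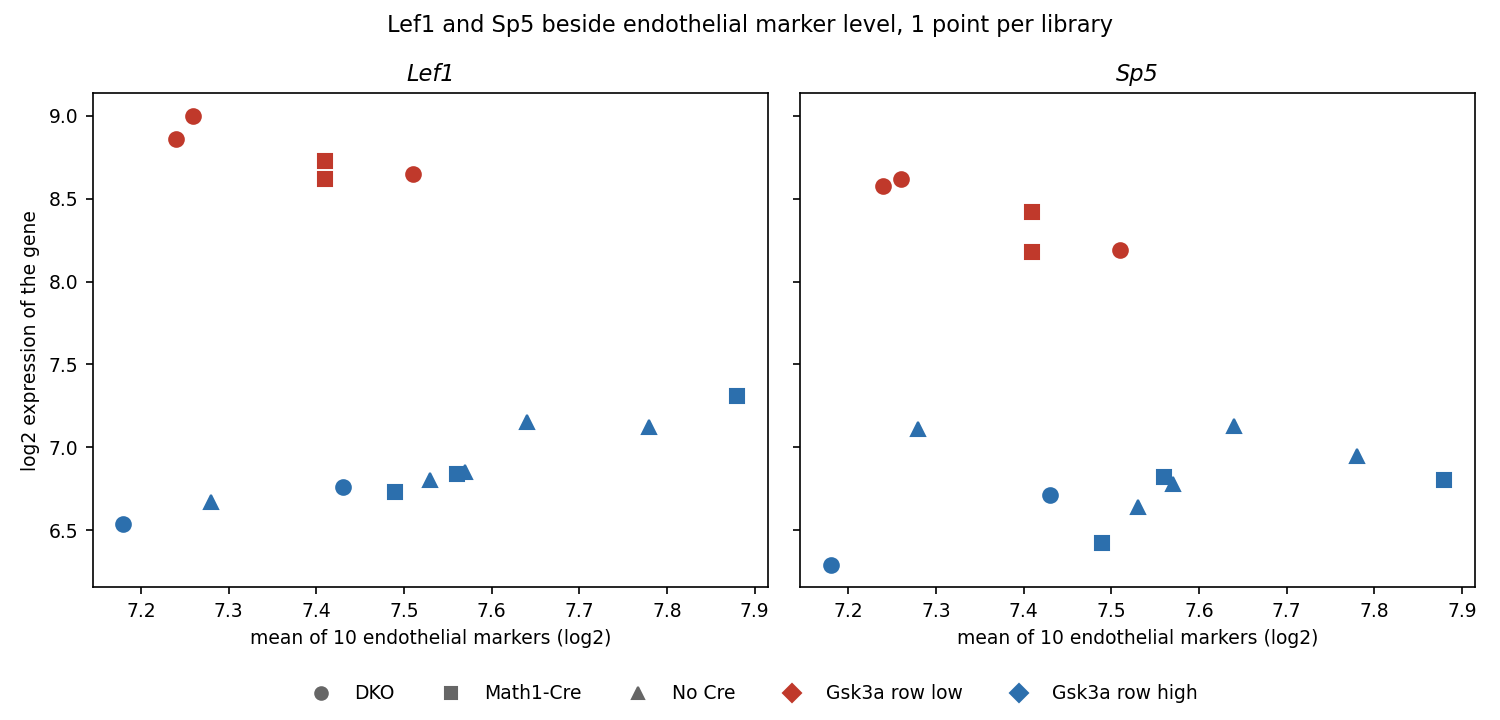
Log2 expression of Lef1 (left) and Sp5 (right) on the y axis against the mean log2 level of 10 endothelial markers on the x axis, with 1 point per library, its shape giving the label and its colour the Gsk3a row. In the blue Gsk3a-high libraries Lef1 goes from 6.54 to 7.31 as the markers go from 7.18 to 7.88, while the red Gsk3a-low libraries stand at 8.62 or above at marker levels of 7.24 to 7.51.

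Over the 15 libraries Tcf7l2 was most like Tfap2d, a transcription factor gene of the developing midbrain roof (Pearson's r = 0.94), and Lhx9, a LIM-homeodomain gene of the midbrain and diencephalon (0.92), followed by Npy, which encodes neuropeptide Y (0.91), Six3os1 and Sema3f (0.90 each). Six3os1 lay at or near background, at 2.92 to 4.72. Tfap2d read 10.11 in DKO 1, 9.30 in DKO 3 and 9.24 in Math1-Cre 5, the 3 libraries with the most Tcf7l2. It read 4.54 in DKO 4, 5.35 in DKO 5 and 6.04 in Math1-Cre 4, the 3 with the least. Its range was 47.5-fold, against 6.63-fold for Tcf7l2. Lhx9 read 8.79, 8.25 and 8.55 in the first 3 of these libraries and 6.42, 6.32 and 7.27 in the last 3. These genes were taken by their likeness to Tcf7l2 alone, and whether midbrain genes as a group follow it was not tested with them. The genes that ran most against Tcf7l2 were Mc2r (r = -0.88), Nrbp1, Epha3, Dhrs7c and Pcdhga10, with r of -0.82 to -0.81 for the last 4. Of these Dhrs7c (2.92 to 3.47) and Mc2r (3.68 to 4.34) lay at background.

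The listed markers of oligodendrocytes and of the brainstem and midbrain gave no relation to Tcf7l2 past the threshold, and the mean of each list ran against it in sign. The mean of a list need not hold for each of its members. Relations of single members of these lists were not tested. With 9 oligodendrocyte lineage markers r was -0.49 over 15 libraries (permutation p = 0.0666, adjusted p = 0.399; rho = -0.34, permutation p = 0.212; -0.36 without the 2 farthest). With 11 brainstem and midbrain markers, most of them Hox genes and genes of monoamine neurons of the hindbrain, and 5 to 7 of them near background in each label, r was -0.53 (permutation p = 0.0436, adjusted p = 0.314; rho = -0.49, permutation p = 0.065; -0.50 without the 2 farthest). Tcf7l1 had no relation past the threshold to any of the 9 marker lists, the nearest being to progenitor markers (r = 0.45, permutation p = 0.0971, adjusted p = 0.418; rho = 0.58, permutation p = 0.0257; 0.49 without the 2 farthest). The genes most like Tcf7l1 were Chmp3 (0.92), Nrde2, Mettl25, Sbno2 and Mrs2 (0.87 to 0.89), and those that ran most against it were Ctla2a (-0.83), Tmem139, Dyrk4, Cngb3 and Dlx6 (-0.82 to -0.81), the last 4 of which lay below 3.8 in every library, at background.

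**Figure D5:**
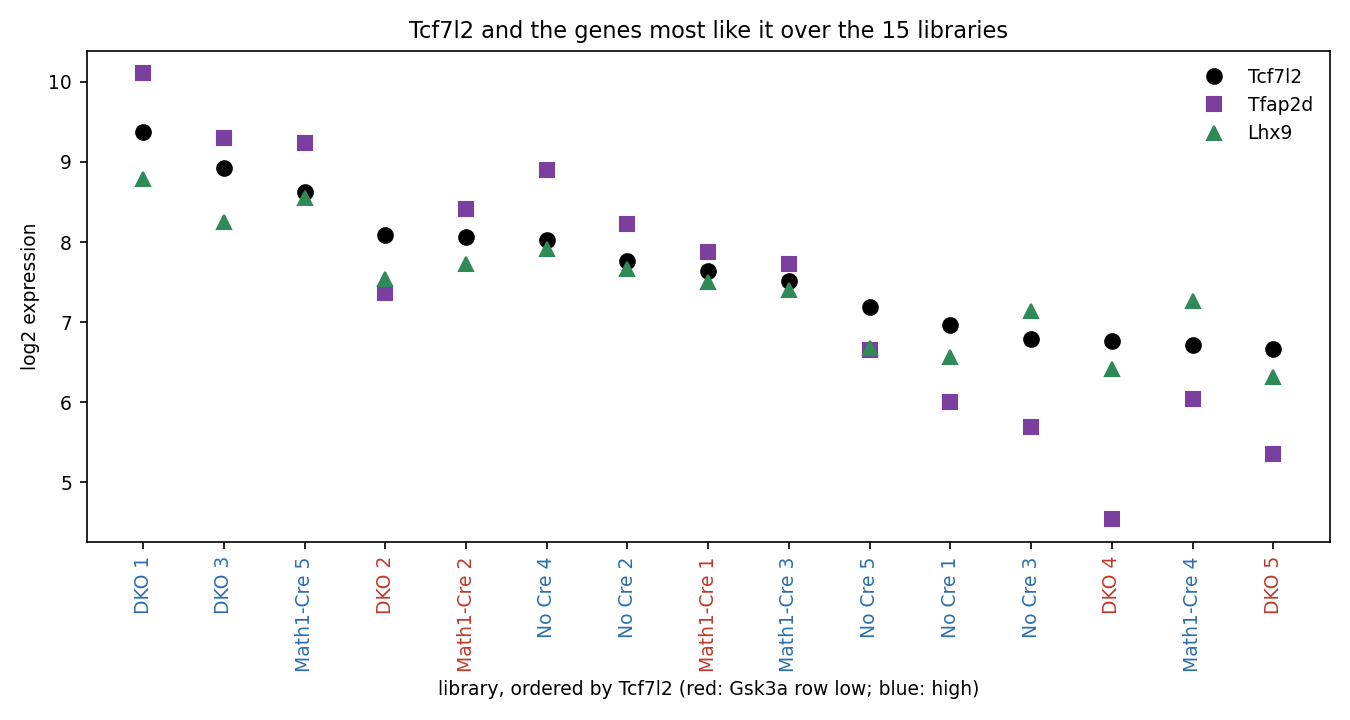
Log2 expression (y axis) of Tcf7l2, Tfap2d and Lhx9 in the 15 libraries, ordered along the x axis by Tcf7l2, with Gsk3a-low libraries named in red and Gsk3a-high ones in blue. All 3 genes are highest in DKO 1, DKO 3 and Math1-Cre 5, and Tfap2d falls from 10.11 to 4.54 while Tcf7l2 falls from 9.38 to 6.66.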

How the data were processed

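The deposited values are log2 expression, 1 per array row. RMA, Partek 6.6 and build mm9 appear in the submitters' processing notes, while their order and settings are not given. Of 41345 rows, 23521 had 1 gene symbol, 1814 several and 16010 none. Of several rows of a gene the one with the highest mean was kept, which left 22180 genes. One limma model with a mean per label was fitted to all 15 libraries, with eBayes, two-sided p-values and Benjamini-Hochberg adjustment over all genes at 0.05. It was tested on simulated data, where 92 of 100 genes changed by 1 log2 and 98 of 100 changed by 2 were recovered in DKO minus no-Cre over 22180 genes, with 5 false calls. The simulated libraries were independent, with no split within a label. Lef1, Sp5 and Tcf7l2 lay at percentile 99.7 or above of all genes by SD, so these rates do not hold for them. Named were the 4 genes, the label checks, up to 4 called genes of a list (otherwise the 2 largest differences, of which the text gives the first) and the 5 genes most and least like each gene by Pearson's r, passing over unnamed transcripts. Relations to marker means used 100000 permutations. Genes, lists, the split at 9.0 and the 11-library fit were chosen with earlier results of these data known. R 4.3.3, limma 3.58.1, Python 3.11.15 and scipy 1.17.1 were used.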

Additional observations from a re-analysis of the deposited data

How the results depend on the processing

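Without DKO 1, DKO 3, Math1-Cre 1 and Math1-Cre 2, Lef1 and Sp5 passed in DKO minus no-Cre (1.92 and 1.54) and DKO minus Math1-Cre (1.87 and 1.78), as they did not with 15, and these signs turned: Tcf7l2 to -0.18 in DKO minus no-Cre and to -0.45 in DKO minus Math1-Cre, Tcf7l1 to -0.049 in the latter and Sp5 to -0.24 in Math1-Cre minus no-Cre. The count of genes called in DKO minus no-Cre went from 16 to 239 with this choice, 2 with only the groups compared, 0 after quantile normalization, 6 after centring, 6 with a replicate block, 7 with the code cg1724 as a block, 0 with the interquartile range of the array as a covariate and 33 with a trended, robust prior. In DKO minus Math1-Cre it went from 122 to 20 after quantile normalization, 23 after centring, 0 with a replicate block, 0 with the interquartile range and 236 with the trended prior. Leaving out 1 library at a time, the counts ran from 0 (without DKO 3 or no-Cre 1, 2 or 3) to 1546 (without no-Cre 4) and from 0 (without Math1-Cre 1) to 1288 (without no-Cre 4). With 15 libraries Tcf7l1 in DKO minus no-Cre was 0.074 after quantile normalization, 0.085 after centring, 0.16 with the interquartile range and -0.12 to 0.039 leaving out 1 library, and Tcf7l2 in DKO minus Math1-Cre was -0.11 to 0.57 leaving out 1. With 11 libraries a replicate block gave 42 genes in DKO minus no-Cre and 25 in DKO minus Math1-Cre, the interquartile range 147 and 60, and leaving out 1 library 80 (without DKO 4) to 1060 (without no-Cre 4) and 44 (without DKO 4) to 446 (without no-Cre 4). There Tcf7l1 was 0.00 and 0.10 after quantile normalization, 0.0039 and 0.093 after centring and 0.11 and 0.23 with the interquartile range in DKO minus no-Cre and DKO minus Math1-Cre, and -0.14 to 0.10 in the latter leaving out 1. In Math1-Cre minus no-Cre, Lef1 was -0.0025 after quantile normalization, -0.0007 after centring and -0.13 to 0.16 leaving out 1, and Tcf7l1 was 0.067 with the replicate block and -0.19 to 0.032 leaving out 1. Leaving out 1 of the 11, Tcf7l2 ran from -0.64 to 0.080, from -0.91 to 0.052 and from -0.23 to 0.72 in the 3 comparisons. The cause of these shifts was not tested. The replicate numbers were not seen to pair the libraries: same-numbered libraries correlated at -0.30 to 0.30, 6 of 15 pairs were over 0.1, and 3 of 15 libraries were closest to their own number. This check used deviations from label means, and the DKO and Math1-Cre labels mix both Gsk3a levels, so it cannot exclude pairing. The block for the code cg1724 was set for library 5 of each label. The 11-library settings were chosen after seeing the data. Using another array row gave no value, since each of the 4 genes has 1 row. Signal limits none of the 4 genes, whose lowest value, 6.29, is above the background medians.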
